A study of Rattus norvegicus with 18 samples.

Results

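The genes described here are those of the protein synthesis machinery: the proteins of the cytosolic ribosome, the initiation and elongation factors with their kinases and inhibitor, and Rrbp1, the ribosome receptor of the endoplasmic reticulum (ER). They were chosen by gene symbol: every probe set with exactly 1 symbol in the platform annotation that began with Rpl, Rps, Rplp, Rpsa, Eif or Eef or was Rrbp1, without the S6 kinases, and for each gene the probe set with the highest mean over the 18 arrays. This gave 71 of the 4736 genes with 1 symbol. Of them, 44 are named as and counted here as ribosomal proteins (14 of the small and 30 of the large subunit), 26 encode factors, their kinases or the eIF4E-binding protein, and 1 is Rrbp1. Among the 14 are Rps2-ps1 and Rps4x-ps9, which are annotated as pseudogenes.

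Expression was measured in a pair of established rat thyroid cell lines on Affymetrix arrays of 1 colour. The differentiated thyrocytes, FRTL5, spent 5 days without TSH (thyroid-stimulating hormone) in 5H medium before bovine TSH was given at 0.1 U/L. The de-differentiated line, FRT/TSHR, whose name says that it carries the TSH receptor, was grown in a Ham's F12 medium (Coon's modification) and given 1 U/L. Both were starved of serum before stimulation, and each was sampled untreated (basal) and after 30 min and 17 h of TSH, with 3 biological replicates in each of the 6 groups. Line, dose and medium differ together and cannot be told apart, and both TSH times of a line share its untreated group, so time in culture and TSH cannot be told apart either. The labels do not say how the receptor was brought into FRT/TSHR or whether the line is 1 clone.

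Ribosomal proteins are made in large, matched amounts in growing cells, and their mRNAs begin with a pyrimidine tract through which the mTOR kinase controls their translation. Initiation starts when eIF4E binds the mRNA cap, which Eif4ebp1 blocks until mTOR phosphorylates it, and when eIF2 brings in the initiator tRNA, which the eIF2 kinases slow and the exchange factor eIF2B restores. Rrbp1 binds ribosomes to the rough ER, where thyrocytes make thyroglobulin and other secreted and membrane proteins. TSH acts on thyrocytes mostly through cAMP and drives growth and hormone synthesis in them.

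All values are log2 expression as deposited, and a level can be compared between arrays but not between genes. A difference passed at an adjusted p under 0.05 in limma, after Benjamini-Hochberg adjustment over all 8740 probe sets. Array medians lay between 5.47 and 5.59, and the signal ratio along the beta-actin transcript set the FRTL5 arrays numbered 1 apart from the other 15 (1.13 to 1.22 against at most 0.28, log2). Between the lines, thyroglobulin (Tg), the defining product of thyrocytes, had a group mean of 11.2 in basal FRTL5 and 4.17 in basal FRT/TSHR, and 5 of 7 measured thyrocyte markers were lower in basal FRT/TSHR, among them Pax8, Foxe1, Slc5a5 and Dio1. The mean over each list of markers of other cell types lay between 4.46 and 4.57 in the 6 groups for C cells (5 genes), 4.72 and 4.93 for endothelial cells (3), 5.09 and 5.28 for fibroblasts (7), and 5.05 and 5.18 for leukocytes (4). In such bulk samples, fewer cells of a type and less RNA per cell cannot be told apart.

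After 17 h of TSH, Rrbp1 rose in FRTL5, and it was the 1 gene of the 71 that passed (background 3.56% of all probe sets, 1.64% upward and 1.92% downward). Rrbp1 was included by its own name, with earlier results of these data known. It had only 1 probe set here, so no other could be set beside it. Its values were 6.31, 6.16 and 5.81 on the 3 basal arrays, 6.31, 6.07 and 6.34 after 30 min, and 8.08, 7.31 and 7.31 after 17 h. All 3 arrays at 17 h lay above all 6 earlier ones. The difference from basal was 1.48 ± 0.20 (log2, limma SE), a 2.78-fold rise with an adjusted p of 0.000853 in limma, and it kept an adjusted p under 0.05 in each of 6 leave-one-out fits. The difference was 0.15 at 30 min, and from 30 min to 17 h it was 1.33 with an adjusted p of 0.00146. Rrbp1 was again the 1 gene to pass between these times (background 4.21%, 1.86% upward and 2.35% downward). In FRT/TSHR the Rrbp1 values were 7.06, 7.18 and 7.20 at basal, 6.82, 7.06 and 7.13 after 30 min, and 7.07, 6.75 and 7.44 after 17 h. These groups overlapped throughout.

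The rise of Rrbp1 at 17 h differed between the lines. The FRT/TSHR effect minus the FRTL5 effect was -1.54 ± 0.29 (limma adjusted p = 0.0208, with 0.789% of all probe sets past the threshold, 0.481% downward), and Rrbp1 was the 1 gene of the 71 that passed. It missed the threshold in 4 of 12 leave-one-out fits: without replicate 1 or replicate 2 of FRT/TSHR at 17 h, without replicate 3 of basal FRT/TSHR and without replicate 3 of basal FRTL5. The adjusted p in these fits lay between 0.0535 and 0.0578. At 30 min the lines' effects differed for none of the 71 genes (background 0.0343% without the replicate block, all downward, and 0.0915% with it), and for none at an unadjusted p under 0.05, against 227 of all probe sets. Rrbp1 was also higher in untreated FRT/TSHR than in untreated FRTL5, by 1.06 ± 0.20 (2.08-fold, adjusted p = 0.000872). The FRTL5 arrays at 17 h thus lay within or above the range of the FRT/TSHR arrays, whereas all 6 earlier FRTL5 arrays lay below it. Other ER translocation genes were on a list chosen with earlier results of these data known (the Sec61 channel, Sec62, the Ssr proteins and the ribophorins Rpn1 and Rpn2). They gave 0 of 7 past the threshold in FRTL5 at 17 h, with a median of 0.45. Rpn2 differed from basal by 0.57 (adjusted p = 0.0955) and Rpn1 by 0.45 (0.181). From 30 min to 17 h 1 of the 7 rose, Rpn2 by 0.65 ± 0.17 (adjusted p = 0.0475). Between the untreated lines, 4 of the 7 were higher in FRT/TSHR, as were 13.3% of all probe sets. These were Sec61b by 0.78, Rpn2 by 0.79, Rpn1 by 0.59 and Ssr4 by 0.53.

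Eif4ebp1, the mTOR-controlled inhibitor of eIF4E, has 3 probe sets that disagree in size. The one with the highest mean gave 8.37, 8.57 and 8.78 in basal FRTL5, 8.24, 8.50 and 8.97 after 30 min and 8.68, 8.80 and 8.69 after 17 h. Its change at 17 h, 0.15 ± 0.16, did not pass (adjusted p = 0.830). The second gave 5.23, 5.81 and 5.10 at basal, 5.67, 5.91 and 5.45 after 30 min and 6.28, 6.97 and 7.04 after 17 h. All its values at 17 h lay above all earlier ones, and it rose by 1.38 ± 0.33, or 2.60-fold (limma adjusted p = 0.0278). The third rose by 1.05 ± 0.25, or 2.07-fold (adjusted p = 0.0276), from 7.84, 7.81 and 6.88 to 8.35, 8.73 and 8.58. Both of these derive from the same source sequence and are not independent of each other. The call of the second probe set was missed in 4 of 6 leave-one-out fits, with differences of 1.24 to 1.62. That of the third was missed in 3 of 6, with differences of 0.74 to 1.22. Without all FRTL5 arrays numbered 1, the second did not pass (1.55, limma adjusted p = 0.0604) and the third did (1.32, 0.0323).

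All 3 Eif4ebp1 probe sets were higher in untreated FRT/TSHR than in untreated FRTL5, again by unequal amounts. The first differed by 0.60 ± 0.16 (1.51-fold, limma adjusted p = 0.0108). It missed the threshold in 2 of 6 leave-one-out fits, without all FRT/TSHR arrays numbered 2, and after quantile normalization, which gave 0.39 (adjusted p = 0.210). The second differed by 2.65 ± 0.33 (6.28-fold, adjusted p = 1.22e-05) and the third by 1.97 ± 0.25 (3.93-fold, 1.44e-05). In FRT/TSHR the second probe set lay between 7.83 and 8.27 on the basal arrays and read 8.81, 7.56 and 8.28 after 17 h, which overlap. The FRT/TSHR effect at 17 h minus the FRTL5 effect was -1.20 ± 0.47 for the second probe set and -0.98 ± 0.35 for the third, and neither passed (adjusted p = 0.408 and 0.345).

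**Figure D1:**
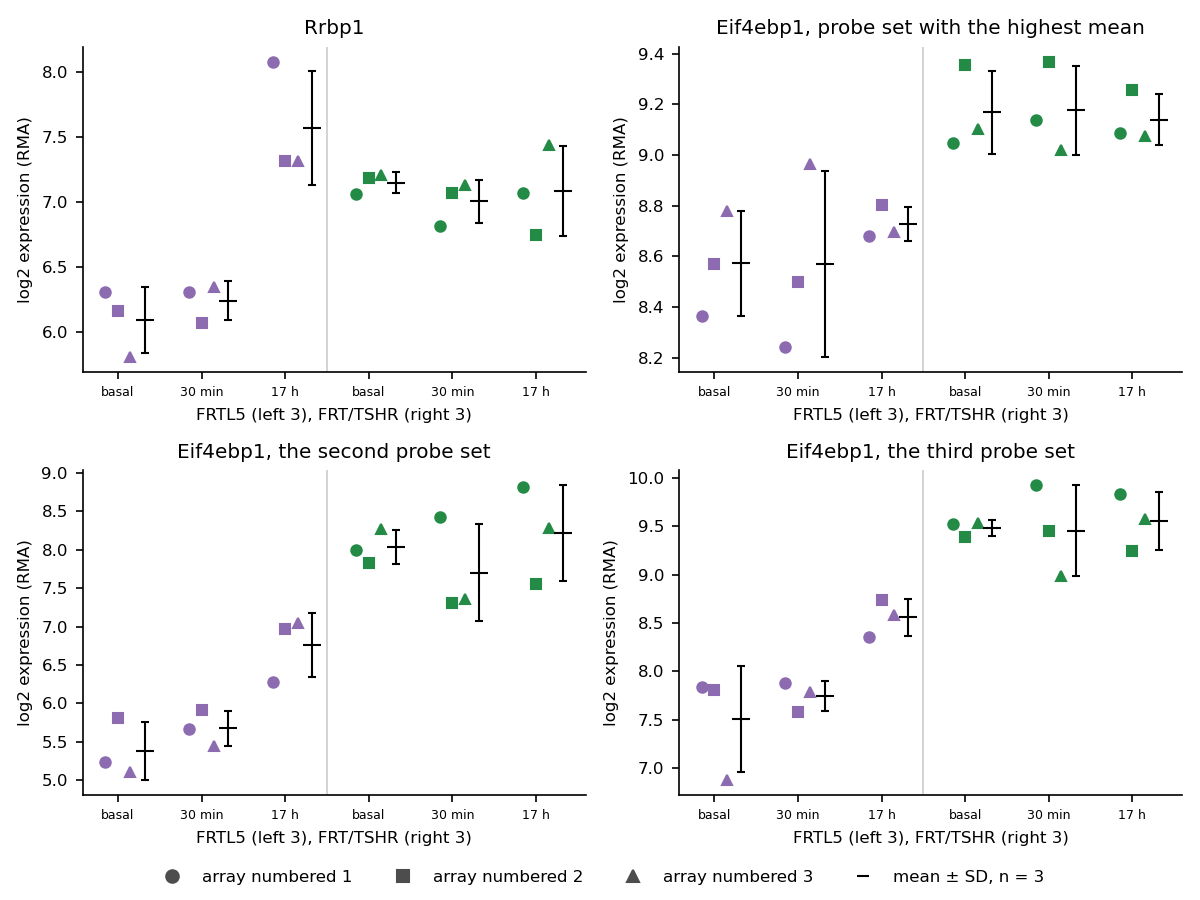
Log2 expression of Rrbp1 and of the 3 Eif4ebp1 probe sets on each of the 18 arrays, with the mean and SD of 3 arrays beside each group. Rrbp1 sits between 7.31 and 8.08 in FRTL5 at 17 h and at most 6.34 at the earlier FRTL5 times, and the first Eif4ebp1 probe set moves little where the other two rise.

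For the ribosomal proteins and the factors, the response of FRTL5 at 17 h was small in the fit without pairing. None of the 44 ribosomal proteins and none of the 26 factors and kinases passed in limma. At an unadjusted p under 0.05 there were 9 of the 71 genes, or 12.7%, the same share as the 12.7% of all probe sets. The median difference was -0.06 over ribosomal proteins and 0.03 over factors, against 0.01 over all probe sets. At 17 h 10 of the 71 genes had no overlap with basal (15.4% of all probe sets), and between 30 min and 17 h 11 had none (17.1%). Same-numbered arrays of a line deviated together in all 18 pairs (correlations of 0.148 to 0.798). Differently numbered ones ran both ways (-0.639 to 0.628), so the ranges overlap. A fit with the replicate number as a block was also made, and with it 5 genes passed (9.92% of all probe sets did).

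Of the 5 genes past the threshold with the block, 4 rose: Rrbp1, Rps24, Rpl36al1 and Rpsa, and Rps2-ps1 fell. Rpsa, a small-subunit protein also known as the laminin receptor, read 11.66, 11.86 and 11.62 at basal and 11.95, 12.25 and 12.06 at 17 h. Its groups did not overlap, and the difference was 0.37 (blocked adjusted p = 0.0185, against 0.144 without the block). Rps24, a protein of the small subunit, read 8.59, 7.28 and 7.70 at basal and 8.89, 8.20 and 8.07 at 17 h. Its groups overlapped, but each array at 17 h exceeded the basal array of the same number, by 0.53 on average (blocked adjusted p = 0.0321). Rpl36al1, named as a copy of a large-subunit protein, rose by 0.45 (0.0283). Rps2-ps1, annotated as a pseudogene of the small-subunit gene Rps2, fell by 0.43 (0.0491).

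Between 30 min and 17 h, 4 genes passed with the block (background 10.5%) and all 4 rose: Rrbp1, Rps24 by 0.73 (adjusted p = 0.00473), Rps27l by 0.71 (0.0110) and Rpsa by 0.36 (0.0190). Rps27l is a paralogue of a small-subunit protein that p53 is known to induce. Its values were 9.73, 9.02 and 8.53 after 30 min and 10.33, 9.27 and 9.80 after 17 h. These groups overlapped, and the rise was seen within each numbered pair.

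Among the initiation factors, Eif3b, a core subunit of eIF3, had the smallest p in FRTL5 at 17 h. It read 9.75, 9.72 and 9.48 at basal and 10.20, 9.99 and 9.91 at 17 h, a difference of 0.38 ± 0.13 whose groups did not overlap but which did not pass (limma adjusted p = 0.130). Eif4e, the cap-binding protein, differed by 0.27 ± 0.23 and Eif2s1, the phosphorylated subunit of eIF2, by 0.17 ± 0.26. Eif4a2, an RNA helicase that unwinds mRNA leaders, had a value of -0.46 ± 0.29 in FRTL5 and 0.48 ± 0.29 in FRT/TSHR at 17 h. The difference of these effects, 0.94, passed with the block (adjusted p = 0.0225, with 4.18% of all probe sets past the threshold) and did not without it (0.504).

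Among the elongation genes none passed in FRTL5 at 17 h. Eef2k, the kinase that inhibits the elongation factor eEF2, had the smallest p (-0.35 ± 0.14, limma adjusted p = 0.271). Eef2 itself read 11.89, 12.32 and 12.20 at basal and 11.75, 11.83 and 11.88 at 17 h. Its values at 17 h lay just below all basal values, a difference of -0.31 ± 0.14 (adjusted p = 0.347). Its other 3 probe sets gave 0.13, 0.02 and -0.02, with larger errors. The eIF2 kinases Eif2ak1, Eif2ak2 and Eif2ak3 differed by -0.03, -0.02 and 0.12, each within its SE.

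Other translation genes were taken from lists chosen with earlier results of these data known. Of 5 aminoacyl-tRNA synthetases, the enzymes that charge tRNAs with amino acids, 2 rose in FRTL5 at 17 h, where 3.56% of all probe sets passed. Vars1 rose by 1.00 ± 0.23 (limma adjusted p = 0.0236) and Tars1 by 0.87 ± 0.21 (0.0333). None of 12 ribosome biogenesis genes passed, with a median of 0.20, and none of 9 mTOR and S6 kinase genes did, with a median of -0.16. Of 9 genes induced when eIF2 is phosphorylated 1 rose, Phgdh, the first enzyme of serine synthesis, by 0.97 ± 0.17 (0.00404), and 8 of the 9 values were above basal. From 30 min to 17 h (4.21% of all probe sets) 1 of the 5 synthetases rose, Vars1 by 1.03. Of the 9 genes Phgdh rose by 0.86 and Ppp1r15a fell by 1.43. Against basal, Ppp1r15a had values of 1.17 at 30 min and -0.26 at 17 h, which did not pass. Of 14 mitochondrial ribosomal proteins 1 fell at 17 h, Mrps6 by 0.77 (adjusted p = 0.0193).

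At 30 min no gene of the 71 passed in FRTL5, where 0.24% of all probe sets did, or with the block, where 0.458% did. Groups did not overlap for 5 of the 71 (background 6.35%), all lower at 30 min: Rpl17, Rpl19, Rpl19l4, Rpl35 and Rps2-ps1. At an unadjusted p under 0.05 there were 2, Rps23 and Rps2-ps1, or 2.82% against 2.76% of all probe sets. The values of the ribosomal proteins were lower than basal for 38 of 44, with a median of -0.20 against 0.00 over all probe sets. With quantile normalization between arrays 28 of the 44 were lower and the median was -0.08. On the arrays numbered 1, 2 and 3 the median ribosomal protein level was 10.56, 11.16 and 11.14 at basal. After 30 min it was 10.72, 10.85 and 10.65, so the arrays numbered 1 went the other way. Rps23, a protein of the decoding centre, had 11.11, 11.57 and 11.72 at basal and 11.19, 10.51 and 11.11 after 30 min, a difference of -0.53 with overlap through the basal array numbered 1. In the same line 33 of the 44 values were higher at 17 h than at 30 min, with a median of 0.11.

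FRT/TSHR showed no change past the threshold in any TSH comparison, neither for these genes nor for any probe set (0% in each), in limma with or without the block. At an unadjusted p under 0.05 there were 2 of the 71 at 30 min, 0 at 17 h and 2 between the times, against 208, 108 and 179 of all 8740 probe sets. The genes at 30 min were Rpl39 (-0.52) and Eif2ak2 (-0.36). The ribosomal proteins had a median of -0.11 at 30 min, with 35 of 44 lower than basal. Without replicate 2 of FRT/TSHR at 30 min, 21 of 44 were lower and the median was 0.01. That fit kept the basal array numbered 2, which was also low, so it cannot show whether 1 array carried the shift. On the arrays numbered 1, 2 and 3 the median ribosomal protein level was 10.81, 10.45 and 10.82 at basal. After 30 min it was 10.83, 10.06 and 10.53. At 17 h the median difference from basal was 0.01, and 24 of 44 values were higher. Groups did not overlap for 1 of the 71 genes at 30 min, Rps23 with a difference of -0.21 (background 7.84%), for 0 at 17 h (5.64%) and for 0 between the times (6.19%).

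**Figure D2:**
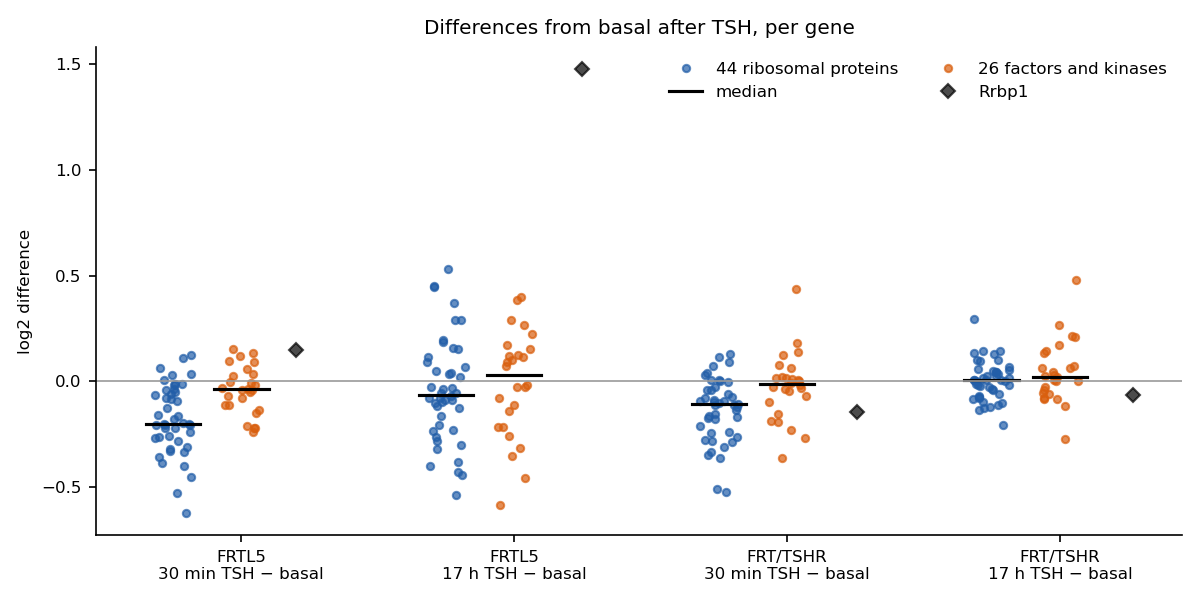
Log2 difference from basal for each of the 44 ribosomal proteins, the 26 factors and kinases, and Rrbp1, after 30 min and 17 h of TSH in each line, with short lines at the medians. Rrbp1 in FRTL5 at 17 h (1.48) stands above all other points, and the ribosomal proteins at 30 min centre on -0.20 in FRTL5 and -0.11 in FRT/TSHR.

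The pyrimidine tract that these genes are known for was looked for at their promoters, since it is what the ribosomal proteins share beyond their names. A promoter from RefSeq (GRCr8) was held for 64 of the 71 genes, and a run of at least 6 C or T letters on the coding strand that reached within 5 bases of the annotated start was counted. It was found for 22 of 38 ribosomal proteins (57.9%), 5 of 25 factors and kinases (20.0%) and 19.7% of all 27457 promoters. The windows below run from 15 bases before to 15 bases from the start, written in the direction of the gene with the counted run in capitals. The first 6 are ribosomal proteins chosen to show runs of different length, of which Rps24 and Rplp0 passed a test here, and the others are genes past the threshold between the untreated lines that have none, picked after their values were seen to cover the roles.
Rps23: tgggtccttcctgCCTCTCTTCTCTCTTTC
Rpl27a: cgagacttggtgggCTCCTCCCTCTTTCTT
Rps24: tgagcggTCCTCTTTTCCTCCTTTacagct
Rps10: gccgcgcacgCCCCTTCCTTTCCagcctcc
Rpl31: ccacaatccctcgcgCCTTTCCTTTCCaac
Rplp0: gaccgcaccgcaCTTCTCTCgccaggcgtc
Rpl41: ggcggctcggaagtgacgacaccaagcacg
Rrbp1: cgccagctccgaggcagaaagtgccacgac
Eif2d: cggcgtgcgtcagttccgggactaggaccg
Eif2b3: cttgtcagccggaggcagcgtggggagcgc
Eif4e: agcggttgtgcgatcagatcgatctaagat
Eef2k: gctccaaccccagccacaacagccccagct

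These windows lie in GRCr8 at chr2:23814502-23814531 (Rps23, plus strand), chr1:172974558-172974587 (Rpl27a, plus), chr16:96502-96531 (Rps24, plus), chr20:5700730-5700759 (Rps10, minus), chr9:49143096-49143125 (Rpl31, plus) and chr12:46718376-46718405 (Rplp0, minus). Those without a run lie at chr7:1563483-1563512 (Rpl41, minus), chr3:151830241-151830270 (Rrbp1, minus), chr13:45168162-45168191 (Eif2d, plus), chr5:135728827-135728856 (Eif2b3, plus), chr2:229740738-229740767 (Eif4e, plus) and chr1:184824405-184824434 (Eef2k, plus). Each window spans the annotated transcription start, so its last 15 bases belong to the first exon. In the 6 ribosomal proteins shown with a run it was 21 bases long in Rps23, 20 in Rpl27a, 17 in Rps24, 13 in Rps10, 12 in Rpl31 and 8 in Rplp0. The runs of Rps23 and Rpl27a go on past the end of the window, so their capitals show only a part. Rpl41, whose mRNA encodes the smallest ribosomal protein, had none at its annotated start. The cAMP response element TGACGTCA, searched on both strands over 250 bases before to 50 after the start, was found in 2 of 64 promoters (Eef2 and Rpl26), or 3.12% against 1.91% of all. Its core TGACG, which lies within that element, was found in 40.6% against 22.0%, and the E-box CACGTG in 10.9% against 6.65%. The promoters compared were not matched for base content, and a part of these letters in the response to TSH was not tested. The ER stress response element (ERSE) and the unfolded protein response element TGACGTGG, which also holds TGACG, were found in none of the 64, against 0.0765% and 0.637% of all, and the sterol regulatory element in none, against 0.102%. None of these was found for Rrbp1, which says only that these letters are not in this window.

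Between the untreated lines, 19 of the 71 genes differed (26.8%, against a background of 25.5% of all probe sets), a share close to that of all genes. They split unevenly: 15 were higher in FRT/TSHR (21.1% against 13.3%) and 4 were lower (5.63% against 12.2%). Quantile normalization gave 11 higher and 8 lower, with 15 of the 19 shared, so the split depends on the scaling: Eif2b2, Eif4e2, Eif4ebp1 and Rpl36al1 no longer passed, and Rpl18, Rpl26, Rpl39 and Rps9 passed as lower. Without replicate 1 of basal FRT/TSHR 12 genes passed, and with the replicate number as a block across lines 22 did (29.7% of all probe sets). By role, the counts were 7 of 44 ribosomal proteins, with 5 higher and 2 lower (4 and 6 after quantile normalization), and 11 of 26 factors and kinases, with 9 higher and 2 lower. Of these 9, Eif2b2, Eif4e2 and Eif4ebp1 did not pass after quantile normalization. Groups did not overlap for 29 of the 71 genes (37% of all probe sets), among them 18 of the 19.

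The initiation factors contributed 7 of 17, all higher in FRT/TSHR, with a median of 0.46 over the 17. Eif2d, which can deliver initiator tRNA to the ribosome without eIF2, read 6.28, 6.43 and 6.60 in FRTL5 and 7.70, 7.55 and 7.33 in FRT/TSHR. The groups were well apart, by 1.09 ± 0.12 or 2.12-fold (limma adjusted p = 4.1e-06). Eif2b3, a subunit of the exchange factor eIF2B, read 7.47, 7.16 and 7.12 against 8.08, 8.13 and 8.12. It was 1.82-fold higher (0.86 ± 0.16, adjusted p = 0.000501), and its other 2 probe sets were higher too, by 1.17 and 0.97. Of the other eIF2B subunits, Eif2b2 was higher by 0.28 ± 0.09 (adjusted p = 0.0360), missed in 5 of 6 leave-one-out fits. It was also missed after quantile normalization, which gave 0.09 (adjusted p = 0.651). Eif2b1, Eif2b4 and Eif2b5 had values of -0.16, -0.06 and 0.07 that did not pass.

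Both measured cap-binding proteins were higher in FRT/TSHR. Eif4e read 6.19, 5.97 and 5.59 in FRTL5 and 7.12, 6.60 and 6.62 in FRT/TSHR, a difference of 0.87 ± 0.23 (1.82-fold, limma adjusted p = 0.00895), missed in 2 of 6 leave-one-out fits. Eif4e2, a homologue of eIF4E that represses translation of its targets, read 8.63, 8.12 and 8.06 against 9.33, 9.16 and 8.80. Its difference of 0.83 ± 0.26 (adjusted p = 0.0251) was missed in 4 of 6 leave-one-out fits. It was also missed after quantile normalization, which gave 0.63 (adjusted p = 0.0834). With Eif4ebp1, the cap-binding protein and its inhibitor thus both had higher values in the same line.

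Both passing subunits of eIF3, the large scaffold that holds the initiation complex on the small subunit, were higher in FRT/TSHR. Eif3b differed by 0.79 ± 0.13 (1.73-fold, limma adjusted p = 0.00015), from 9.75, 9.72 and 9.48 to 10.48, 10.59 and 10.25, and its second probe set by 0.87. Eif3d differed by 0.69 ± 0.13 (1.61-fold, adjusted p = 0.000747), from 9.16, 9.05 and 9.06 to 9.73, 9.94 and 9.66. Neither gene's groups overlapped. Eif3m had wide spread (0.45 ± 0.40) and did not pass. Eif4h, which stimulates the helicase eIF4A, did not pass by its brightest probe set (0.46 ± 0.33), while its other 2 probe sets did (0.79 and 0.77). Eif2s1 and Eif5 had values of 0.67 and 0.59 that did not pass (adjusted p = 0.0799 and 0.0747).

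Of the 4 inhibitory kinases measured, Eef2k and Eif2ak3 were lower in FRT/TSHR and the other two did not pass. Eef2k read 7.40, 7.36 and 6.97 in FRTL5 and 5.57, 5.83 and 5.79 in FRT/TSHR. It was 2.86-fold lower in FRT/TSHR (-1.52 ± 0.14, limma adjusted p = 5.83e-07), the smallest p of the 71 genes, and its second probe set was lower as well (-1.03 ± 0.16). Eif2ak3 (PERK), the ER-stress kinase of eIF2, read 5.46, 5.29 and 4.66 against 4.20, 4.66 and 4.59, which overlap narrowly. Its difference of -0.65 ± 0.18 passed (adjusted p = 0.0120), but missed the threshold in 3 of 6 leave-one-out fits, and its second probe set did not pass (-0.31, adjusted p = 0.0897). Eif2ak1 and Eif2ak2 had values of -0.15 and -0.14 that did not pass.

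Of the elongation factors, Eef1g, a subunit of the exchange factor of eEF1A, was higher by 0.59 ± 0.19 (limma adjusted p = 0.0344), missed in 4 of 6 leave-one-out fits. Eef1a1, Eef1a2 and Eef2 had values of -0.47, -0.05 and -0.19 that did not pass. Eef1a1, which carries charged tRNAs to the ribosome, read 9.89, 10.45 and 10.27 in FRTL5 and 9.76, 9.39 and 10.05 in FRT/TSHR, so its arrays overlapped.

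**Figure D3:**
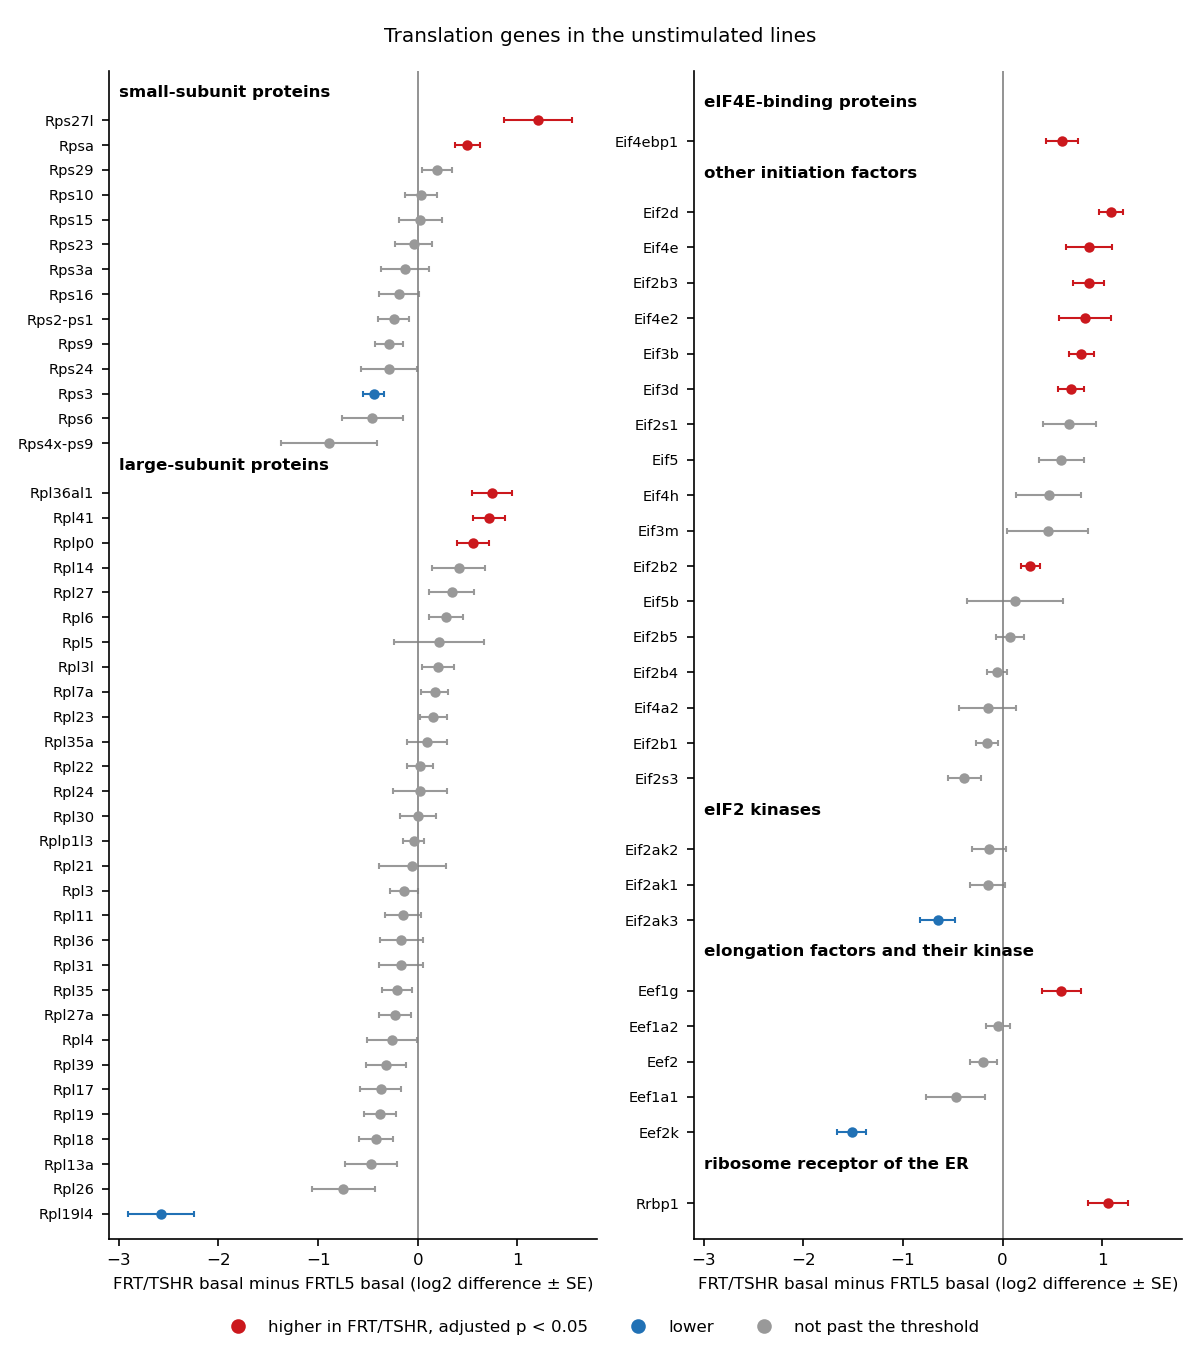
Log2 difference between untreated FRT/TSHR and untreated FRTL5 for each of the 71 genes by role, with limma SE, coloured where the adjusted p was under 0.05. Among the 17 other initiation factors 7 are higher and 0 lower, while most of the 44 ribosomal proteins lie near 0 and Rpl19l4 (-2.58) and Eef2k (-1.52) lie far to the left.

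Of the 44 ribosomal proteins 15.9% passed between the untreated lines, against 25.5% of all probe sets, and their median difference was -0.09 against -0.04 over all probe sets. Rpsa was higher in FRT/TSHR by 0.50 ± 0.12 (limma adjusted p = 0.00655), and its second probe set by 0.48. Its values were 11.66, 11.86 and 11.62 against 12.30, 12.10 and 12.24, with no overlap. Rplp0, the base of the stalk that binds translation factors, was higher by 0.56 ± 0.16 (adjusted p = 0.0164), missed in 2 of 6 leave-one-out fits, where the value went down to 0.40, and without all FRT/TSHR arrays numbered 2. Rpl41 was higher by 0.72 ± 0.16 (0.00302), missed in none. Rps27l was higher by 1.20 ± 0.34 (0.0153), missed in 4 of 6 leave-one-out fits, and Rpl36al1 by 0.75 ± 0.20 (0.00985), missed in 1 of 6.

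The 2 ribosomal proteins that were lower in FRT/TSHR were Rpl19l4 and Rps3. Rpl19l4, named as a copy of the large-subunit gene Rpl19, read 8.76, 9.26 and 8.75 in FRTL5 and 5.75, 6.50 and 6.77 in FRT/TSHR. This was the largest difference of the 71 genes, -2.58 ± 0.33 or 5.98-fold (limma adjusted p = 1.59e-05). Rpl19 itself read 11.97, 11.95 and 11.96 against 11.59, 11.87 and 11.27, a difference of -0.38 ± 0.16 that did not pass (adjusted p = 0.0990). Rps3, which lies at the entry of the mRNA channel, was lower by 0.44 ± 0.11 (adjusted p = 0.00509), and its second probe set gave a value of like size that did not pass (-0.42 ± 0.21, adjusted p = 0.179). Ribosomal protein genes have many near-identical copies, so a probe set can hold RNA of more than 1 of them. Probe sets disagreed for Rpl13a, whose brightest read -0.47 without passing and whose second was higher by 0.75 (adjusted p = 0.0116), and for Rpl6, at 0.28 and 0.47.

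Rps6, the substrate of the S6 kinases, had a value of -0.46 ± 0.31 and Rpl3, Rpl11 and Rpl22 had values of -0.14, -0.15 and 0.02. Of these none passed. Rpl5 had a value of 0.21 ± 0.45. Rpl11 and Rpl5 are among the ribosomal proteins known to bind the p53 regulator Mdm2. Rplp1l3, named as a copy of the stalk protein Rplp1, was among the lowest 3.02% of probe sets by mean level and passed in no comparison. Eif4a1, Eif4g1, Eif4g2, Eif5a, Eif6, Rplp1 and Rplp2 were not analysed here.

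For 8 of the 71 genes all 9 arrays of one line lay apart from all 9 of the other, whatever the TSH time (15.4% of all probe sets did so). Of these Eif2d, Eif2b3, Eif3b, Rpl41 and Eif4ebp1 were higher in FRT/TSHR, and Eef2k, Rpl19l4 and Rps3 were lower. Eef2k had a median of 7.05 (6.82 to 7.40) over the FRTL5 arrays and of 5.79 (5.56 to 6.15) over the FRT/TSHR arrays. Eif2d had a median of 6.50 (6.22 to 6.60) against 7.56 (7.33 to 7.76). In Eif3b the gap was narrow, with 10.20 the highest FRTL5 value and 10.25 the lowest FRT/TSHR value.

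**Figure D4:**
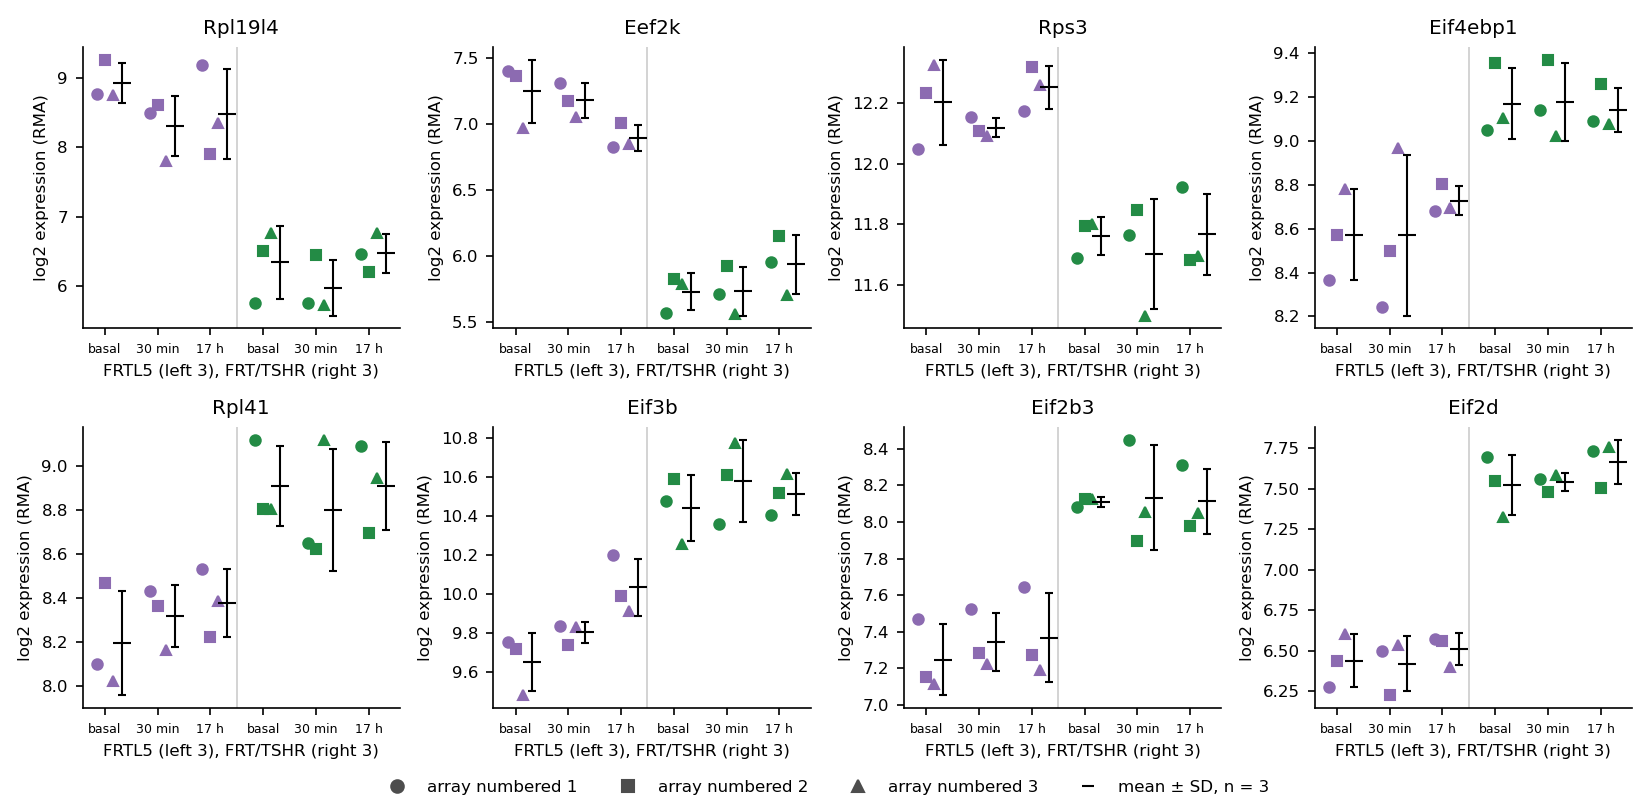
Log2 expression on each of the 18 arrays for the 8 genes whose 9 FRTL5 and 9 FRT/TSHR arrays do not overlap, with the mean and SD of 3 arrays beside each group. Eef2k lies between 6.82 and 7.40 in FRTL5 and between 5.56 and 6.15 in FRT/TSHR.

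Genes near these in function, on the lists chosen with earlier results of these data known, differed between the untreated lines as follows. Of all probe sets 25.5% passed in this comparison, 13.3% as higher in FRT/TSHR and 12.2% as lower. Of 5 synthetases 4 were higher in FRT/TSHR: Tars1 by 1.85 ± 0.21 (limma adjusted p = 5.74e-06), Kars1 and Vars1 each by 1.01, and Farsa by 0.82. Of 9 genes induced when eIF2 is phosphorylated, 5 were higher, among them Asns, the asparagine synthetase (1.58 ± 0.13, adjusted p = 1.06e-07), Ddit3 (1.73) and Ppp1r15a (1.30), which encodes the subunit that directs eIF2 dephosphorylation. The 2 that were lower, Psat1 (-1.08) and Phgdh (-1.01), are enzymes of serine synthesis. Of 12 ribosome biogenesis genes 4 were higher, among them the RNA polymerase I subunits Polr1b (1.16) and Polr1d (1.32), and Dkc1 was lower (-0.85). Of 9 mTOR and S6 kinase genes 2 were higher, Akt1 by 0.57 and Rps6kb1 by 0.45, and of 14 mitochondrial ribosomal proteins 1 was higher and 1 lower. Neither of 2 termination and poly(A)-binding genes passed.

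The ribosomal proteins varied more between replicates than most genes, with a median SD within groups of 0.235 against 0.155 over all probe sets. Part of this spread followed the replicate number. In FRT/TSHR the array numbered 2 was lower than the mean of the other two in all 3 groups for 30 of the 44 ribosomal proteins, by a median of 0.316 over the 44 genes, and higher in all 3 groups for 4. The median ribosomal protein level was 10.06 to 10.45 on these 3 arrays and 10.53 to 10.91 on the other FRT/TSHR arrays.
Single genes moved far more with the number than with TSH. Eif5b, the GTPase that joins the ribosomal subunits, read 7.47, 7.32 and 7.35 on the FRT/TSHR arrays numbered 1 and 8.53 to 9.27 on the other 6, with 8.16 to 8.65 in FRTL5. Rpl5 read 5.57, 5.50 and 5.60 on the FRTL5 arrays numbered 1 and 4.14 to 4.33 on the other 6. In FRT/TSHR, too, Rpl5 was higher on the arrays numbered 1 (5.57, 5.13 and 5.31) than on the other 6 (4.41 to 4.80). In each case the numbered arrays stood apart in all 3 groups. The FRTL5 arrays numbered 1 were those with the shifted beta-actin ratio. On them, 15 of the 26 factors and kinases were higher in all 3 groups and 4 were lower. Of the 44 ribosomal proteins, 10 were higher on them in all 3 groups and 11 lower. Without these arrays, Eef1g, Eif2ak3, Eif2b2 and Rpl36al1 no longer passed between the untreated lines. The part of the beta-actin ratio in these values was not tested.

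**Figure D5:**
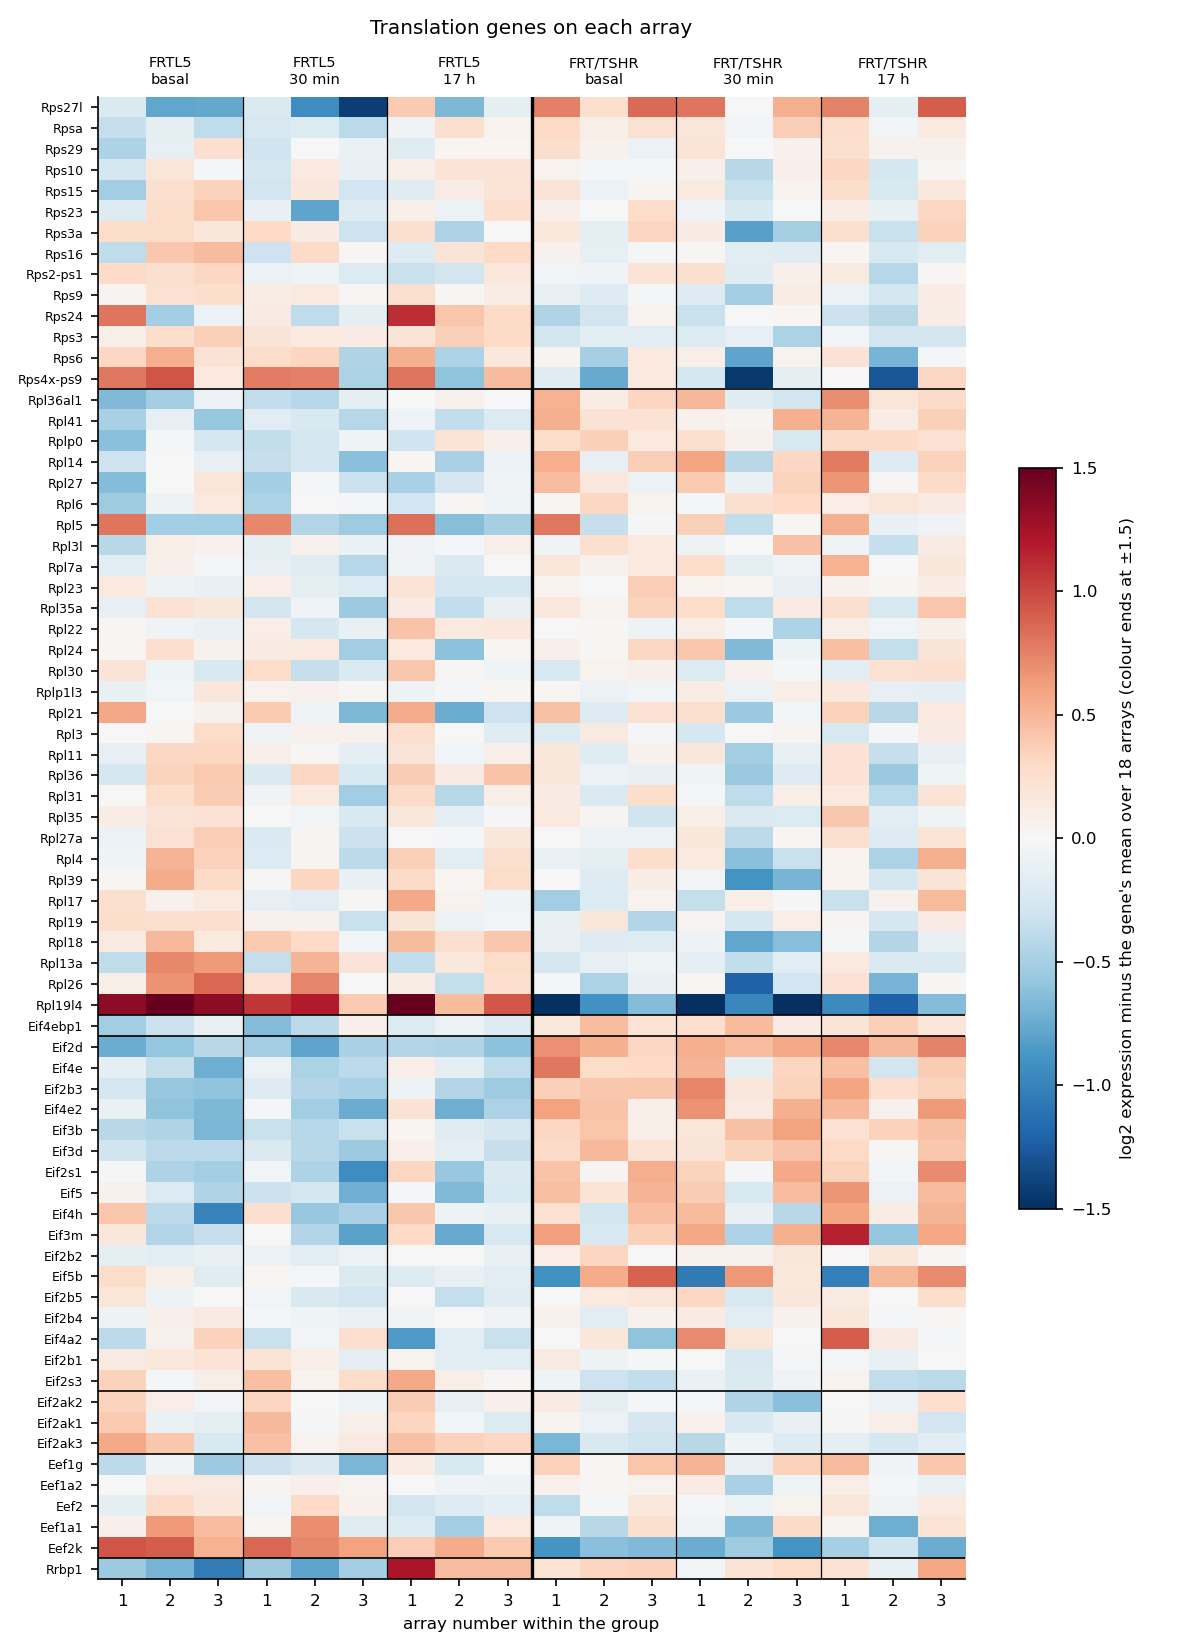
Log2 expression minus the gene's mean over the 18 arrays, for the 71 genes (rows, by role) on each array (columns, numbered within the 6 groups), red above and blue below the mean. The line difference shows in the initiation factors and Eef2k, the rise of Rrbp1 in the FRTL5 arrays at 17 h, and the array numbers in Rpl5 and Eif5b.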

How the data were processed

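The deposited log2 values came from RMA, per the submitters' processing notes, a method that removes background, brings arrays to a shared distribution and combines the probes of a set. Its version and settings are not given in the sources used here, and the scanner files were not used here. Of 8799 probe sets, 59 controls were left out and 8740 tested with no filter on low values. Platform annotation gave 7006 of these 1 symbol, 308 several and 1426 none. By gene number 69 of the 71 members were found in GRCr8. Another 42 probe sets carry a member's name among several and were left out.

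Group means were fitted with limma 3.58.1 (R 4.3.3) to all 18 arrays, with 12 residual and 3.60 prior degrees of freedom, two-sided, in 9 comparisons. The fit was tested on simulated data. The members, the gene lists and the tests were chosen with earlier results of these data known. Genes were named by a fixed rule: up to 10 called members at each end of a comparison, the smallest p in each role, members whose probe sets disagree, and a list of core factors. The labels call the replicates biological, without saying how cultures were separated. Their numbers were taken to pair the arrays within a line, since the 18 same-numbered pairs correlated at 0.148 to 0.798 in their deviations from group means. The 36 differently numbered pairs of a line ran from -0.639 to 0.628, and these ranges overlap. Across lines the same-numbered pairs ran both ways (-0.217 to 0.420). Depth on arrays is limited only by the number of arrays. Alternatives varied the block, the arrays, the scaling, the filter and the choice of probe set.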

Additional observations from a re-analysis of the deposited data

Results flagged for a closer look

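The effect of 17 h of TSH on Rrbp1 differed between the lines by the test of the difference itself: FRT/TSHR effect minus FRTL5 effect was -1.54 ± 0.29 (log2, limma adjusted p = 0.0208). Rrbp1 was higher at 17 h than at basal on 3 of 3 FRTL5 arrays and overlapped its basal values in FRT/TSHR. It starts higher in FRT/TSHR, by 1.06, and line, dose and medium cannot be told apart. The difference of effects missed the threshold in 4 of 12 leave-one-out fits. It also missed it with only the arrays compared and without all FRT/TSHR arrays numbered 2. In FRT/TSHR at 17 h, 0 of all 8740 probe sets passed against basal.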

How the results depend on the processing

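Counts of genes past the threshold in the 9 comparisons were recomputed under the alternatives, which gave 150 counts. Of these, 137 stayed within 1.5 times the count given, with a 0 that stayed 0 included. The count given was 0 in FRTL5 at 30 min, in all TSH comparisons within FRT/TSHR and for the difference of effects at 30 min. With the replicate block, the paired fit within a line, 5 instead of 1 passed in FRTL5 at 17 h, 4 instead of 1 between 30 min and 17 h, and 2 instead of 1 for the difference of the TSH effects at 17 h. With it, 22 instead of 19 passed between the untreated lines, where the numbers do not pair arrays, and the block changed no other count. With the mean of a gene's probe sets, 2 passed in FRTL5 at 17 h and 2 between the times, the added gene being Eif4ebp1, and with plain probe sets alone 2 passed at 17 h. The difference of effects fell to 0 when the fit held only the arrays compared and, in an alternative chosen after seeing the data, without all FRT/TSHR arrays numbered 2. Without 1 array it ranged from 0 to 1, and the count between the untreated lines from 12 (without FRT/TSHR basal replicate 1) to 17. Of 354 values of single called genes under alternatives, 304 kept their side of the threshold, 50 lost it and 0 reversed. The cause of these shifts was not tested. With 3 arrays a group, small differences are not resolved, and detection above background was not measured.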
